A study of Mus musculus with 16 samples.

Results

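The myeloid colony-stimulating factor genes described here are the ligand gene Csf1 and the receptor genes Csf1r, Csf2ra, Csf2rb, Csf2rb2, Csf3r and Il3ra. They were taken as every probe set whose only gene symbol is one of these, which gave 14 of 34945 single-symbol probe sets and 7 of 18193 genes. All 7 genes were bright enough to be among the 11908 genes tested. Macrophages were sorted from perigonadal fat of C57BL/6J mice aged 12 to 14 weeks, either lean (Lep +/+) or obese because they lack leptin (Lep ob/ob), the satiety hormone made by fat cells. FB cells carry F4/80 and CD11b but not CD11c, and FBC cells carry all 3. The RNA, amplified in 2 rounds, was measured on 16 arrays, 4 for each population and genotype. The ob/ob model lacks leptin itself, so loss of leptin and obesity cannot be told apart. The labels do not state whether each array holds 1 mouse or a pool, so p-values rest on the variation from array to array.

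Colony-stimulating factors are cytokines that keep myeloid cells alive and drive their division and maturation. CSF1 binds the receptor tyrosine kinase CSF1R, on which most tissue macrophages, those of fat included, depend. GM-CSF (Csf2), IL-3 and IL-5 each have a private alpha chain and share the common beta chain made from Csf2rb, which signals through JAK2 and STAT5, and mice carry a second beta chain gene, Csf2rb2, for IL-3. G-CSF acts through the homodimer of the Csf3r product and is best known for the making of neutrophils.

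The promoters of Csf1 and Csf2ra are shown because these are the 2 genes whose level passed the test. Each run covers 250 bases before and 50 after the gene start, from RefSeq on GRCm38.p6, read 5′ to 3′ on the minus strand. Capitals mark matches to GAGGAA, a core often bound by the myeloid factor PU.1, and to GGGANNNNCC, an NF-kB core, each searched on both strands.
Csf1, chr3:107760420-107760719: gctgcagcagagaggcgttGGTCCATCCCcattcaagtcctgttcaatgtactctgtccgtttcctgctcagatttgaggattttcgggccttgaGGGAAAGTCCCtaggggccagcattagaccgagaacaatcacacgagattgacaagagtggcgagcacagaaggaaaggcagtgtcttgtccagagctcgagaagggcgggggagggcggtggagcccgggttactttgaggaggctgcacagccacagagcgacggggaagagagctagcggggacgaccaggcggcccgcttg
Csf2ra, chr19:61228369-61228668: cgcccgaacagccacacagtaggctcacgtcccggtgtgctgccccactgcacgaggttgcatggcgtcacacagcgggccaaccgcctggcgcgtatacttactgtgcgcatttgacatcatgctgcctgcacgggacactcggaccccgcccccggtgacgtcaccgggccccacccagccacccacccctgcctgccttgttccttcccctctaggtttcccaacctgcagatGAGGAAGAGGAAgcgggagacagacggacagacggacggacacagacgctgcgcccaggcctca
The Csf1 window held 3 NF-kB matches, of which 2 overlap and are printed as 1 run of capitals, and no GAGGAA. The Csf2ra window held 2 adjacent GAGGAA matches, beginning 14 and 8 bases before the start, and no NF-kB match. Of 32851 promoters of the same length, 28.3% held GAGGAA and 20.7% held GGGANNNNCC, so a match of either kind is common. Among the promoters of Csf2rb2, Csf3r and Il3ra, GAGGAA was found in Csf2rb2 and Csf3r, and the NF-kB core in Csf3r. The STAT5 core TTCNNNGAA, present in 8.3% of promoters, was found in Csf2rb2, and the C/EBP core TTGCNNAA, present in 10.8%, in Il3ra. Csf2rb had no entry in the promoter table.

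The sort and the arrays set the frame for these values. Itgax, which encodes CD11c, was higher in FBC than in FB cells of lean mice by 1.49 ± 0.26 SE on the log2 scale (limma adjusted p = 0.0213), and in those of obese mice by 2.20 ± 0.26 (adjusted p = 0.000111). Adgre1, which encodes F4/80, lay at a log2 level of 11.94 to 13.69 over all 16 arrays, and Itgam, which encodes CD11b, at 6.84 to 8.39. The ratio of 3′ to 5′ actin signal, a measure of how far the amplified RNA reached toward its 5′ end, was 45.0 to 53.3 on array 4 of lean FB, lean FBC and obese FB, and 1.15 to 10.9 on the other 13. All levels below are log2(intensity + 16) after quantile normalization, and all changes are differences of these, which understate the change of dim genes. In a sorted bulk sample, fewer cells of a type and less RNA per cell cannot be told apart. The comparisons share arrays: each group of 4 enters both an obesity comparison and a population comparison.

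Obesity went with lower Csf1 and lower Csf2ra in FBC macrophages, and with neither a higher nor a lower call for the other 5 genes. Csf1 was 3.11-fold lower and Csf2ra 1.77-fold lower in obese than in lean FBC cells on the log2(intensity + 16) scale. The 2 calls of 7 genes, both downward, stand beside a background of 14.1% of all tested genes called in this comparison, 5.95% downward. The arrays of the lean and obese group did not overlap for 3 of the 7 genes, Csf1, Csf2ra and Csf2rb, against 20% of all genes, and 3 had an unadjusted p under 0.05, against 28.9%. The median change of the 7 genes was -0.01, and that of all tested genes 0.08. In FB macrophages none of the 7 genes was called by limma, against 5.89% of all genes, 1.81% upward and 4.07% downward. At an unadjusted p under 0.05 there were 3 of 7 in FB, against 20.2% of all genes, and the groups were apart for 2 of 7, Csf2ra and Csf2rb2, against 11.8%. The median change in FB was -0.32 for the 7 genes and 0.03 for all genes.

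**Figure D1:**
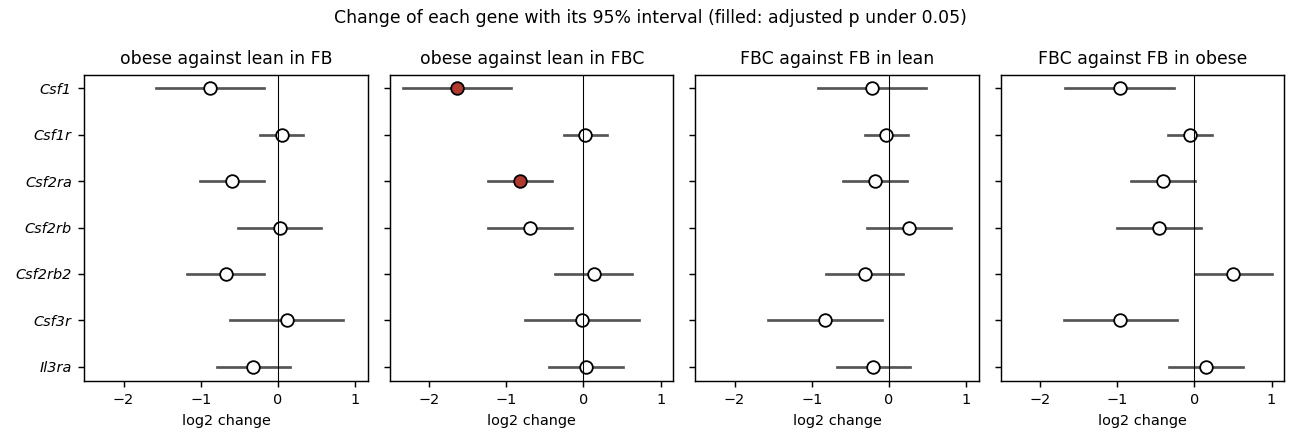
Log2 change (x axis) of each of the 7 genes (y axis) in the 4 comparisons of groups, with points for the limma estimate and lines for the 95% interval. Only Csf1 and Csf2ra in the comparison of obese against lean FBC cells are filled (adjusted p = 0.00408 and 0.0119), and the Csf1r estimates lie between -0.06 and 0.05 with quantile normalization, while without it the estimate for obese against lean FBC was -0.38.

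Csf1 encodes the macrophage growth factor itself, which macrophages as well as stromal cells can make. On its brightest probe set, 1460220_a_at, lean FB arrays 1 to 4 read 7.67, 8.22, 7.96 and 8.76, and lean FBC arrays 7.39, 7.85, 8.16 and 8.35. Obese FB arrays read 6.41, 7.70, 7.83 and 7.14, and obese FBC arrays 5.62, 6.30, 6.78 and 6.49. Every obese FBC array lay below every lean array of either population, while the obese FB arrays overlapped the lean FB range. The group means ± SD (n = 4 each) ran from 8.15 ± 0.46 in lean FB through 7.94 ± 0.42 in lean FBC and 7.27 ± 0.65 in obese FB to 6.30 ± 0.49 in obese FBC. Neighbours in this order overlapped array by array. Obese against lean FBC gave -1.64 ± 0.33 SE (95% interval -2.34 to -0.94, limma adjusted p = 0.00408). In FB the change was -0.88 ± 0.33, which did not pass (adjusted p = 0.133). The difference between the FBC and FB effects, -0.75 ± 0.47, did not pass either (adjusted p = 0.491), so the effect is not shown to differ between the populations.

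The call on Csf1 rests on 1 of its 4 probe sets. In obese against lean FBC the change was -0.72 on 1448914_a_at (adjusted p = 0.316 over all probe sets), -0.19 on 1425154_a_at (0.732) and 0.03 on 1425155_x_at (0.979). The probe sets 1448914_a_at and 1425155_x_at lay above the array median on only 7 and 6 of the 16 arrays, while 1460220_a_at did so on 15 and 1425154_a_at on all 16. On 1460220_a_at the same fit over all probe sets gave adjusted p = 0.00751, and it called 5.95% of all probe sets. Averaging the 4 probe sets gave -0.63 and ended the call (adjusted p = 0.0551).

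Csf1r, the receptor for CSF1 and a lineage marker of macrophages, showed no called difference in any comparison. On probe set 1419872_at the 4 arrays read 13.48, 13.68, 13.60 and 13.58 in lean FB, and 13.51, 13.56, 13.56 and 13.59 in lean FBC. Obese FB arrays read 13.66, 13.59, 13.63 and 13.65, and obese FBC arrays 13.59, 13.68, 13.68 and 13.36. All groups overlapped, and the spread within groups, a pooled SD of 0.0888, was at the 0.244th percentile of all tested genes, whose median SD was 0.350. That narrow spread depends on the scaling: the deposited intensity ran from 7735.6 to 17212.1, and without normalization the pooled log2 SD was 0.312, against 0.283 for Csf2ra. This probe set ranked 34 to 137 in brightness among 45037 probe sets, which describes the signal and not the number of transcripts. The change with obesity was 0.02 in FBC, with a 95% interval of -0.26 to 0.30 (limma adjusted p = 0.941), and 0.05 in FB (adjusted p = 0.888). Lean FBC differed from lean FB by -0.03 and obese FBC from obese FB by -0.06 (adjusted p = 0.977 and 0.826). Other scalings moved these values without a call: obese against lean FBC was -0.38 without normalization and -0.42 with median centring (adjusted p = 0.262 and 0.233), and obese FBC against FB was -0.48 and -0.49 (lowest adjusted p = 0.174).

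A second Csf1r probe set, 1419873_s_at, spanned 12.95 to 13.68. The third, 1423593_a_at, read 8.71 to 9.57 on the 3 arrays of high actin ratio and 10.98 to 11.86 on the other 13. Its change in obese FBC against FB was 1.06 (adjusted p = 0.406 over all probe sets) and 0.45 ± 0.20 without those arrays (adjusted p = 0.246), an alternative added after the data were seen. The low readings of this probe set thus fell on the arrays with the highest 3′ to 5′ actin ratio. The same ratio for Gapdh was 26.5, 41.5 and 28.0 on these arrays. It was 28.1 on obese FBC array 3, where the probe set read 11.25. The part of the actin ratio in the low readings was not tested.

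**Figure D2:**
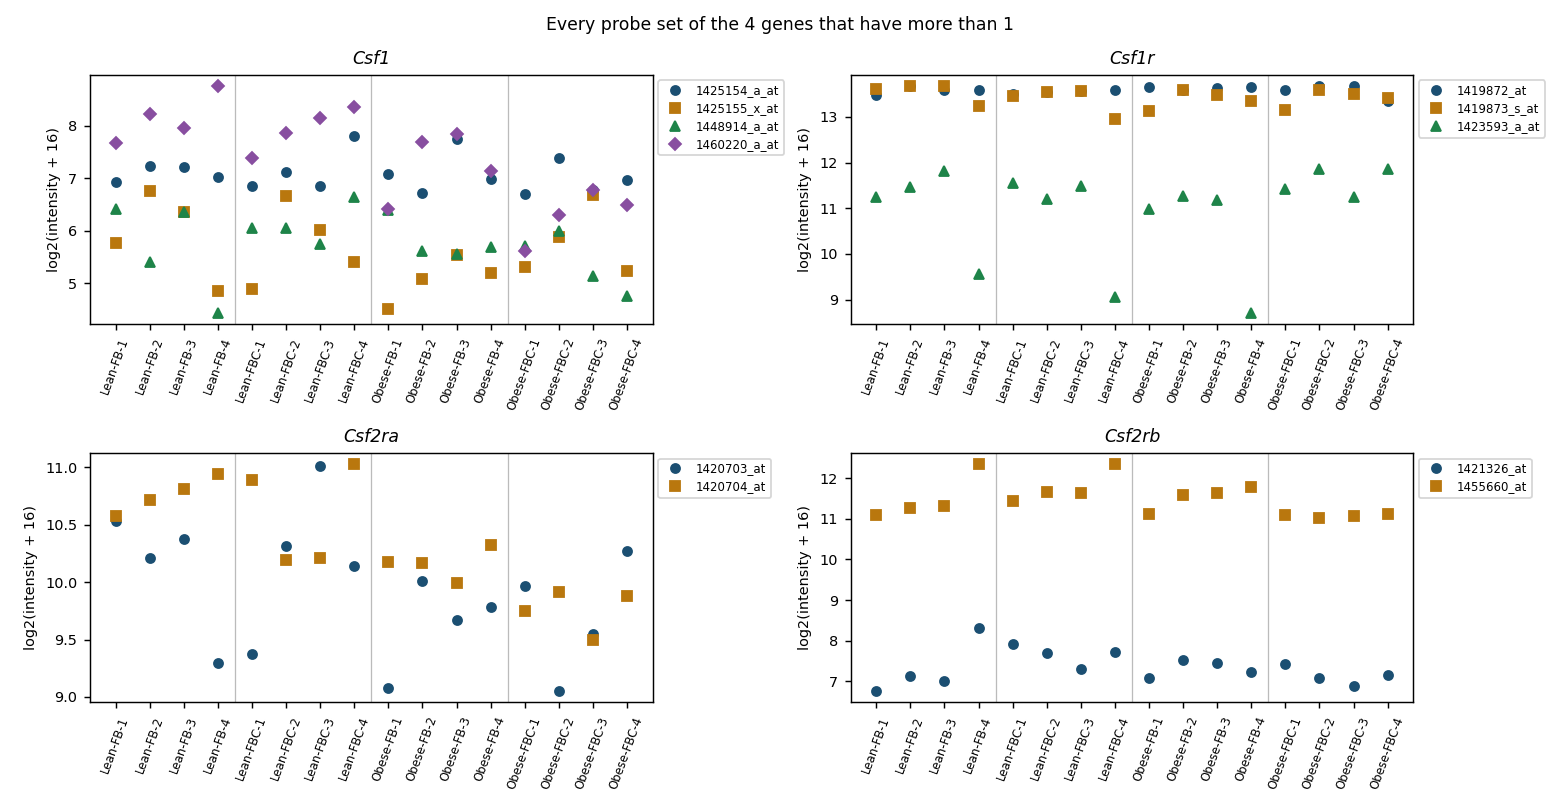
Log2(intensity + 16) (y axis) of every probe set on the 16 arrays (x axis, grouped by population and genotype) for Csf1, Csf1r, Csf2ra and Csf2rb, with 1 marker shape per probe set. The Csf1r probe set 1423593_a_at falls to between 8.71 and 9.57 on array 4 of lean FB, lean FBC and obese FB, and the Csf1 fall in obese FBC is seen on 1460220_a_at.

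Csf2ra encodes the alpha chain that gives the GM-CSF receptor its specificity. On probe set 1420704_at lean FB arrays read 10.57, 10.72, 10.81 and 10.94, and lean FBC arrays 10.89, 10.19, 10.21 and 11.03. Obese FB arrays read 10.18, 10.17, 9.99 and 10.32, and obese FBC arrays 9.75, 9.91, 9.50 and 9.88. In each population every obese array lay below every lean one, and the lean FBC arrays fell into a high and a low pair. The means ± SD (n = 4 each) were 10.76 ± 0.16 in lean FB and 10.58 ± 0.44 in lean FBC, against 10.17 ± 0.14 in obese FB and 9.76 ± 0.19 in obese FBC. Obese against lean FBC gave -0.82 ± 0.20 SE (95% interval -1.24 to -0.40, limma adjusted p = 0.0119). In FB the change of -0.60 ± 0.20 did not pass (adjusted p = 0.0870), and the difference between the populations, -0.22 ± 0.28, was not called (adjusted p = 0.752). The other probe set, 1420703_at, was also lower on average without passing, by -0.50 in FBC and -0.47 in FB (adjusted p = 0.467 and 0.596 over all probe sets). Its lean and obese arrays overlapped in both populations. Its lean FBC arrays read 9.38, 10.31, 11.01 and 10.14, an order unlike that on 1420704_at. Of the 2 probe sets taken singly, only 1420704_at passed in FBC. Obese FBC and obese FB arrays were apart on 1420704_at, but the change of -0.40 was not called (adjusted p = 0.215).

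Csf2rb encodes the beta chain shared by the GM-CSF, IL-3 and IL-5 receptors. On probe set 1455660_at lean FB arrays read 11.10, 11.28, 11.31 and 12.34, and lean FBC arrays 11.43, 11.66, 11.64 and 12.35. Obese FB arrays read 11.12, 11.58, 11.64 and 11.78, and obese FBC arrays 11.09, 11.02, 11.08 and 11.12. Array 4 was the highest of both lean groups, and the obese FBC arrays, with a mean of 11.08 ± 0.04 SD (n = 4), lay below every lean FBC array. The change in FBC of -0.69 ± 0.26 did not pass (limma adjusted p = 0.0812), and in FB it was 0.02 (adjusted p = 0.973). Without lean FB replicate 4 the FBC change passed (adjusted p = 0.0249). That array is not in this comparison, and the change stayed at -0.69. Only the shared spread estimate and the adjustment over all genes differed, with 16.9% of all genes called. Without the 3 arrays of high actin ratio the FBC change was -0.50 (adjusted p = 0.0376), with 21.1% of all genes called. Weighting the arrays by their scatter gave -0.58 and also passed (adjusted p = 0.00822). The dimmer probe set 1421326_at gave -0.52 in FBC (adjusted p = 0.300 over all probe sets) and was also highest on lean FB array 4, at 8.30.

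The summed eosinophil markers were highest on lean FB array 4. Their summed intensity over 7 genes was 6692 on lean FB array 4 and 425 to 569 on the other lean FB arrays, and 920 on lean FBC array 4 against 269 to 468 on the others. Obese FB arrays summed to 122 to 970 and obese FBC arrays to 94 to 153. Csf2rb itself read 12.34 on lean FB array 4 and 12.35 on lean FBC array 4. Siglecf, an eosinophil lectin, read 11.98 on lean FB array 4 against 7.98 to 8.53 on the other 3, and Il5ra, the IL-5 receptor alpha chain, 8.08 against 4.40 to 5.19. Ccr3 and Alox15 were also highest of lean FB there. Epx and Prg2 did not rise there: Epx read 5.41 against 5.02 to 5.63, and Prg2 4.78 against 4.20 to 5.33. Of the 7 markers, 3 lay below the array median on every lean FB array, 5 on every lean FBC array, 3 on every obese FB array and 5 on every obese FBC array. In FBC, 1 of the 3 that were tested, Siglecf, was lower with obesity, against 5.95% of all genes. The monocyte marker sum of lean FB was also highest on array 4, at 45019 against 21050 to 24566. Lean FBC array 4 had the lowest monocyte sum of its group, 16922 against 18336 to 19925. The part of either cell type in the Csf2rb values was not tested.

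Csf2rb2 lies beside Csf2rb on chromosome 15, with 0 coding genes between them in RefSeq, and the near-identical pair may not be fully separated by a probe set. A probe set that names both was not used. Csf2rb2 on 1449360_at read 10.45, 10.62, 10.36 and 11.49 in lean FB, and 10.30, 10.37, 10.59 and 10.41 in lean FBC. Obese FB arrays read 9.64, 10.30, 10.28 and 9.98, and obese FBC arrays 10.17, 10.59, 10.76 and 10.69. Obese FB arrays lay below all lean FB arrays, while lean and obese FBC arrays overlapped. The change with obesity was -0.68 ± 0.24 in FB (limma adjusted p = 0.102) and 0.13 ± 0.24 in FBC (adjusted p = 0.751). The 2 effects differed by 0.81 ± 0.33, with an unadjusted p of 0.0260 and an adjusted p of 0.307, so no difference was called. This was the only one of the 7 genes under an unadjusted 0.05 in that test, against 13.2% of all genes, and 0.16% of all genes were called there.

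Il3ra, the IL-3 receptor alpha chain, was dim. Its probe set 1419712_at lay above the array median on 14 of 16 arrays, between 5.81 and 6.71. The group means ± SD (n = 4 each) were 6.45 ± 0.31 in FB and 6.25 ± 0.39 in FBC of lean mice, and 6.13 ± 0.21 in FB and 6.28 ± 0.34 in FBC of obese mice. All groups overlapped, and the changes with obesity were -0.32 in FB and 0.03 in FBC (limma adjusted p = 0.468 and 0.946).

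Csf3r, the G-CSF receptor, read lower on average in FBC than in FB cells of both genotypes, and no comparison passed in the model of the 4 groups. On probe set 1418806_at lean FB arrays read 8.98, 8.92, 8.98 and 9.24, and lean FBC arrays 7.94, 8.36, 8.58 and 7.91. Obese FB arrays read 8.21, 9.93, 9.85 and 8.58, and obese FBC arrays 7.47, 8.29, 8.75 and 8.22. All lean FB arrays lay above all lean FBC arrays, and obese FB split into arrays 2 and 3, the highest of the 16, and arrays 1 and 4. FBC against FB was -0.83 ± 0.35 in lean mice (limma adjusted p = 0.547). The same comparison gave -0.96 ± 0.35 in obese mice (adjusted p = 0.0970). Without obese FB replicate 1 the obese value became -1.27 and passed (adjusted p = 0.0245). With obesity the change was 0.11 in FB and -0.01 in FBC (adjusted p = 0.896 and 0.985).

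Neutrophil markers, which include genes of a cell type rich in this receptor, followed Csf3r in part. Their summed intensity over 11 genes was 5217 to 6649 in FB and 766 to 3106 in FBC cells of lean mice, and 1618 to 5034 in FB and 415 to 1413 in FBC cells of obese mice. On obese FB arrays 2 and 3, where Csf3r was highest, it was 4894 and 5034, and on arrays 1 and 4 it was 1618 and 2022. The lean FB arrays all had higher sums than these but lower Csf3r than obese FB arrays 2 and 3, at 8.92 to 9.24 against 9.93 and 9.85. Lean FBC arrays 1 and 4 had sums of 2981 and 766 with Csf3r at 7.94 and 7.91. Of the 9 markers tested, 7 were lower in obese FBC than in obese FB, among them S100a9 (-2.68 ± 0.55, limma adjusted p = 0.00614), against 3.28% of all genes lower. The corresponding count in lean mice was 1, S100a8 (-3.11 ± 0.59, adjusted p = 0.0394), against 0.193% of all genes called. With obesity in FB, 2 of the 9 were higher, Cd177 and Mmp8, and 1 was lower, Mmp9. Of all genes 1.81% were higher and 4.07% lower in that comparison. The markers below the array median on every array of a group numbered 1 in FB and 5 in FBC of lean mice, and 2 and 4 in those of obese mice. Monocyte markers were also lower in obese FBC than FB for 7 of 8 genes, with sums of 9916 to 13647 against 40674 to 48046. In lean mice the monocyte sums were 16922 to 19925 in FBC and 21050 to 45019 in FB, and none of the 8 lay below the array median throughout a group. The part of either cell type in the Csf3r values was not tested.

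**Figure D3:**
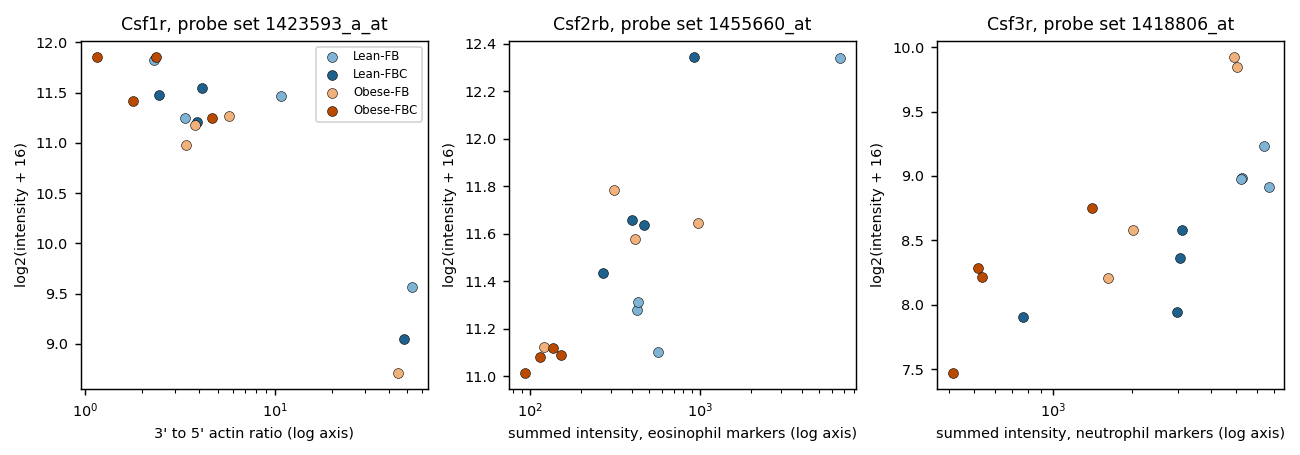
Log2(intensity + 16) (y axes) on the 16 arrays of a Csf1r probe set against the actin ratio, of Csf2rb against summed eosinophil markers and of Csf3r against summed neutrophil markers (x axes, logarithmic), coloured by group. The 3 arrays of actin ratio 45.0 to 53.3 hold the lowest Csf1r readings, and lean FB array 4 stands at an eosinophil sum of 6692.

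**Figure D4:**
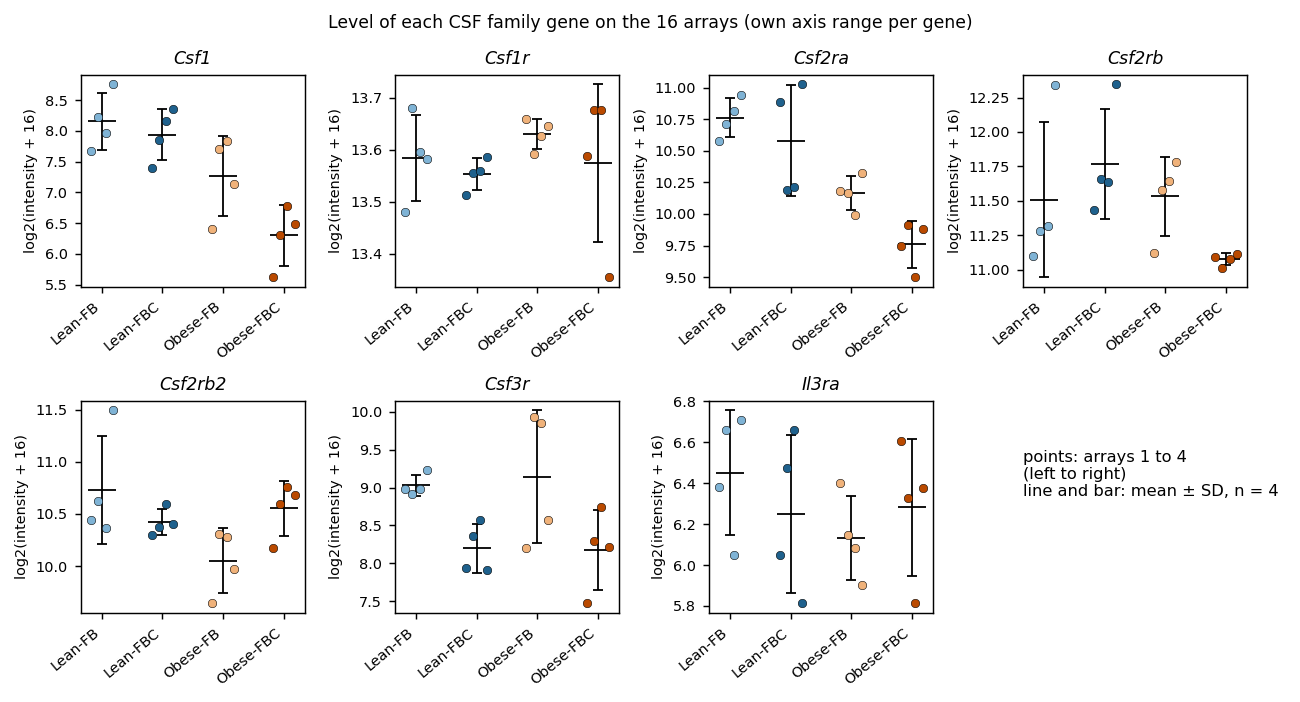
Log2(intensity + 16) (y axis, its own range for each gene) of the 7 genes in the 4 groups (x axis), with points for arrays 1 to 4 and bars for the mean ± SD. Csf1 and Csf2ra fall from lean to obese FBC, from means of 7.94 and 10.58 to 6.30 and 9.76, while the quantile-normalized Csf1r arrays all lie between 13.36 and 13.68.

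Between FBC and FB cells of the same genotype, no gene of the 7 passed. In lean mice limma called 0.193% of all genes, and 1 of the 7, Csf3r, had an unadjusted p under 0.05, against 8.2% of all genes. Csf3r was also the single gene whose lean groups were apart, against 5.63% of all genes, and the median change was -0.20 for the 7 genes and -0.00 for all. In obese mice 8.39% of all genes were called, 5.11% higher and 3.28% lower in FBC. Among the 7 genes 3 were under an unadjusted 0.05, against 25.1% of all genes, and 2, Csf2ra and Csf2rb, had groups that did not overlap, against 17.7%. The median change was -0.40 for the 7 genes and 0.08 for all. Csf1 in obese mice was -0.97 ± 0.33 (adjusted p = 0.0806), and without obese FB replicate 1 it was -1.26 and passed (adjusted p = 0.0213).

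Markers of other cell types also moved with obesity, where Csf1 and Csf2ra were called. Of all genes 5.95% were lower in FBC and 4.07% in FB. In FBC cells 8 of 11 tested dendritic cell markers were lower, and their sums over 12 genes were 10891 to 19151 in lean and 4410 to 6957 in obese mice. In FB cells 7 of 11 were lower, with sums of 5178 to 6054 and 1397 to 2151. At most 2 of the 12 lay below the array median on every array of a group. Of 8 monocyte markers, 2 were lower in FBC, Ccr2 and Vcan, with sums of 16922 to 19925 in lean and 9916 to 13647 in obese mice. In FB 3 of the 8 were higher, against 1.81% of all genes, with sums of 21050 to 45019 and 40674 to 48046. Of 10 fibroblast markers, a cell type known to make CSF1, 0 were called in FBC, with sums of 1752 to 15494 in lean and 2756 to 13792 in obese mice, and 5 were lower in FB, with sums of 3038 to 25495 and 2080 to 2935. Of the fibroblast markers 1 lay below the array median on every obese FB array and 0 did so in the other groups. Of 7 macrophage and sort markers, 2 were higher in obese FBC cells, against 8.12% of all genes higher, and 5 were not called. The 2 were Adgre1 (1.08 ± 0.24, limma adjusted p = 0.00668) and Fcgr1 (0.96 ± 0.28, adjusted p = 0.0307). The part of these shifts in the Csf1 and Csf2ra values was not tested.

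Among the 3 other ligands tested, only Csf2, the GM-CSF gene, was called. Its lean FB arrays read 7.00, 6.34, 6.74 and 5.93, and its obese FB arrays 4.51, 4.45, 4.33 and 4.53, all of them below the array median. Lean FBC arrays read 6.40, 6.83, 7.34 and 5.58, and obese FBC arrays 6.79, 5.23, 5.20 and 5.73. Csf2 was thus at a dim, even level in obese FB and higher on every lean FB array. It passed the brightness filter through 8 arrays, 7 of them lean, so a difference against obese FB is imprecise in size. The obesity change in FB was -2.05 ± 0.37 (limma adjusted p = 0.00311), against 4.07% of all genes lower. In FBC it was -0.80 and not called (adjusted p = 0.162). Obese FBC read 1.28 above obese FB (adjusted p = 0.0395), against 5.11% of all genes higher, with 1 of the 4 obese FBC arrays above the array median. That call ended when any of 7 arrays was left out, with adjusted p up to 0.0991 without obese FBC replicate 1. Csf3 (G-CSF) and Kitl (stem cell factor) were not called with obesity in FB (0.04 and -1.10, adjusted p = 0.974 and 0.179) or in FBC (0.08 and 0.03, adjusted p = 0.925 and 0.972). Il34, the second ligand of CSF1R, lay above the array median on 2 arrays, and Il3 and Il5 on 0, so they were not tested.

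Of the 5 related receptors tested, Kit, the stem cell factor receptor, was called. It was higher in obese than lean FBC (0.93 ± 0.27, limma adjusted p = 0.0333), against 8.12% of all genes higher. It was also higher in obese FBC than obese FB (1.66 ± 0.27, adjusted p = 0.00146), against 5.11% of all genes higher. All 4 obese FB arrays lay below the array median for Kit, at 4.93 to 5.75, so the size of the latter change is imprecise. The call in obese against lean FBC ended when any of 6 arrays was left out, with adjusted p up to 0.0962, and the other Kit probe set did not share its direction. Flt3, a receptor of dendritic cell precursors, was 0.98 in FB and 1.004 in FBC (adjusted p = 0.119 and 0.0697). Epor, Il6ra and Il6st were not called with obesity in either population.

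Signalling components next to the receptors were measured for all 24 genes of the list, and none was called with obesity in FB. In FBC 2 were higher and 3 lower, against 8.12% of all genes higher and 5.95% lower, and the list's median change was 0.10 beside 0.08 for all genes. Jak2, the kinase that the common beta chain engages, was lower in obese FBC (-1.27 ± 0.19, limma adjusted p = 0.000333), and its second probe set moved the same way. Fgr, a Src family kinase of myeloid cells, was also lower (-1.16 ± 0.31, adjusted p = 0.0215), a call that ended without lean FBC replicate 4 or obese FBC replicate 2 or 3 (adjusted p up to 0.0789). Ptpn11, which encodes the phosphatase SHP-2, was lower (-0.78 ± 0.16, adjusted p = 0.00486), with 1 of its 2 other probe sets in the same direction. Ptpn6, which encodes SHP-1, an inhibitor of CSF1R signalling, was higher (0.9996 ± 0.24, adjusted p = 0.0111). The remaining call was Inpp5d, which encodes the lipid phosphatase SHIP1, at 0.65 ± 0.19 (adjusted p = 0.0302), a call ended by leaving out any of 5 arrays (up to 0.1003) and named after its value was seen. In obese FBC against FB, Fgr and Plcg2, a phospholipase, were lower (-1.96 ± 0.31 and -0.93 ± 0.25, adjusted p = 0.00112 and 0.0295), against 3.28% of all genes lower. The Plcg2 call ended when any of 5 arrays was left out, with adjusted p up to 0.104.

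Of 14 tested feedback, STAT5 and CSF1 responsive genes, 1 was higher and 2 lower in obese FB, and 2 were higher and 3 lower in obese FBC. Of all genes 1.81% were higher and 4.07% lower in FB, and 8.12% and 5.95% in FBC. The list's medians were 0.05 and 0.03, beside 0.03 and 0.08 for all genes. Ccnd2, the cyclin D2 gene, was lower in FB (-1.66 ± 0.31, limma adjusted p = 0.00415) and in FBC (-2.79 ± 0.31, adjusted p = 1.96e-05), and all 6 of its other probe sets moved the same way. Cish, a STAT5-induced inhibitor of cytokine receptors, was lower in FBC (-2.31 ± 0.39, adjusted p = 0.000901). Socs2, another STAT5-induced inhibitor, was lower in FB (-2.36 ± 0.22, adjusted p = 1.14e-05) and in FBC (-1.43 ± 0.22, adjusted p = 0.000501). It was higher in obese FBC than FB (2.00 ± 0.22, adjusted p = 7.75e-05), against 5.11% of all genes higher. All 4 obese FB arrays lay below the array median for Socs2, at 4.95 to 5.84, so the FB change and the one against obese FB are imprecise in size. Of its 5 other probe sets, 1, 4 and 1 shared the direction in these comparisons. Pparg, a lipid-sensing nuclear receptor that GM-CSF induces in lung macrophages, was higher in FB (1.14 ± 0.20, adjusted p = 0.00279) and in FBC (0.68 ± 0.20, adjusted p = 0.0346, up to 0.0978 and no longer called when any of 6 arrays was left out). Bcl2l1, the survival gene for BCL-XL, was higher in FBC (0.73 ± 0.18, adjusted p = 0.0118).

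Of 12 tested transcription factors known from the control of these receptor genes, 1 was higher in FB, and 1 was higher and 1 lower in FBC, against 1.81%, 8.12% and 5.95% of all genes. Cebpa was higher with obesity in FB (0.92 ± 0.25, limma adjusted p = 0.0391) and in FBC (1.68 ± 0.25, adjusted p = 0.000333). Cebpa encodes a factor of granulocyte and macrophage development, and its FB call ended when any of 7 arrays was left out (adjusted p up to 0.112). Fli1, an Ets factor, was lower in FBC (-0.77 ± 0.22, adjusted p = 0.0307), a call ended by leaving out any of 5 arrays (up to 0.0891). Spi1, which encodes PU.1, was -0.47 in FBC and not called (adjusted p = 0.308). In obese FBC against FB, Ets2 was lower (-0.93 ± 0.22, adjusted p = 0.0140), against 3.28% of all genes lower. The list's medians with obesity were -0.04 in FB and -0.15 in FBC.

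Of 7 genes for receptor shedding and turnover, none was called with obesity in FB, and 1 was higher and 1 lower in FBC. The background was 5.89% of all genes called in FB, and 8.12% higher and 5.95% lower in FBC. Cblb, a ubiquitin ligase, was lower (-1.77 ± 0.34, limma adjusted p = 0.00271), and neither of its 2 other probe sets shared that direction. Usp8, a deubiquitinase of endosomes, was higher (1.14 ± 0.37, adjusted p = 0.0480, up to 0.128 and no longer called when any of 12 arrays was left out), and its other probe set did not share the direction. None of the 6 lists held a call in lean FBC against FB or in the difference of the obesity effects. Only 0.193% and 0.16% of all genes were called there, so the absence says little about the lists.

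**Figure D5:**
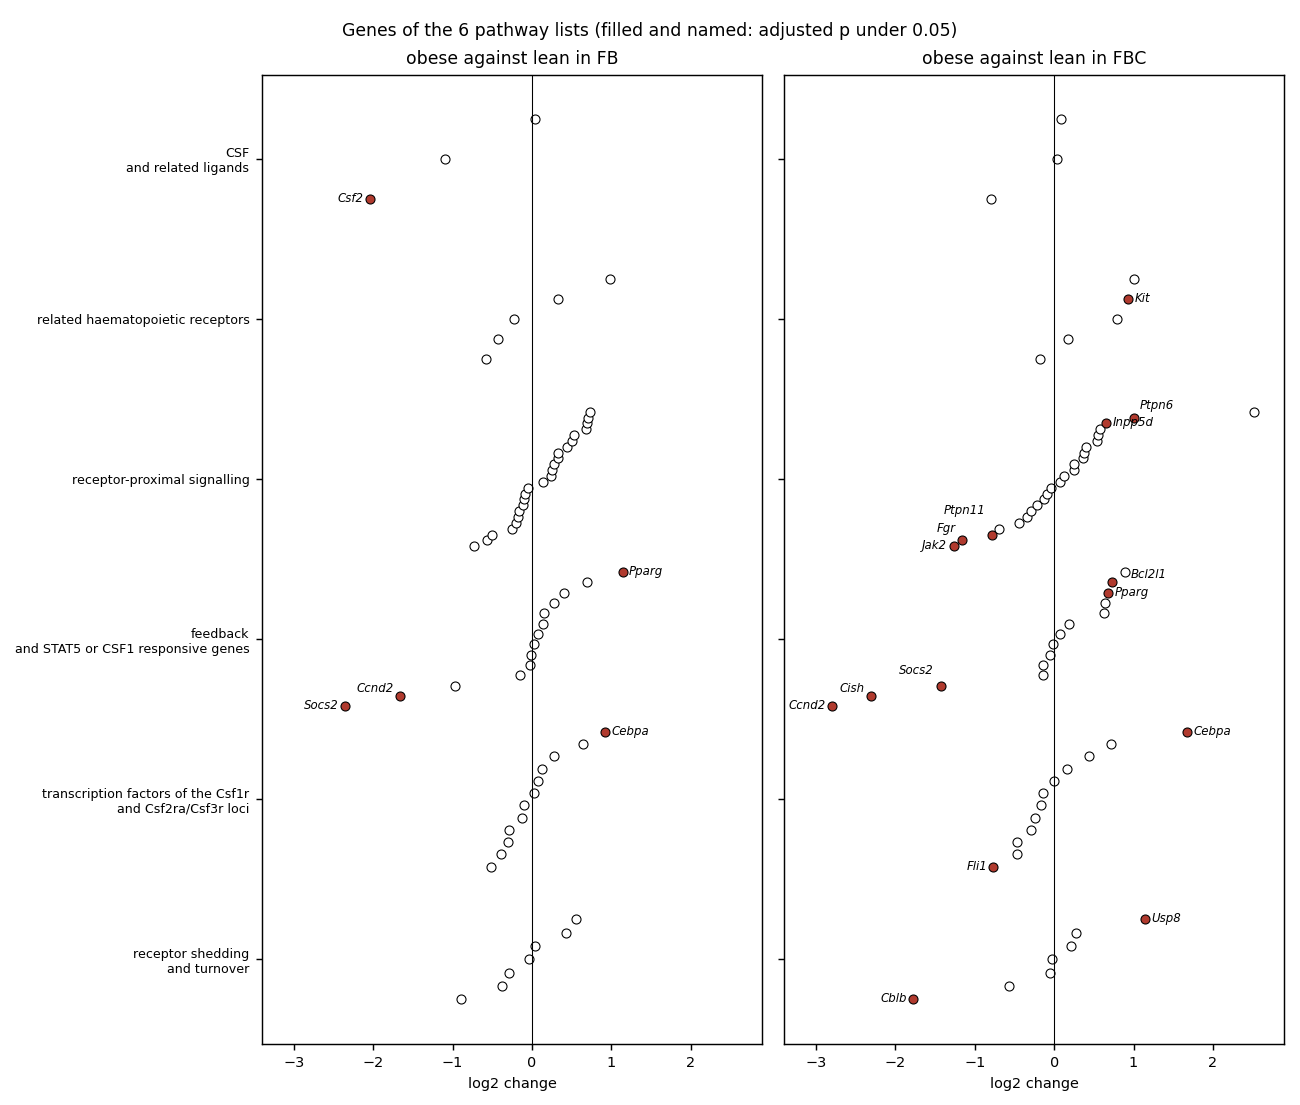
Log2 change with obesity (x axis) of every tested gene of the 6 pathway lists (y axis, genes ordered by change within a list) in FB and in FBC cells. Filled and named points have a limma adjusted p under 0.05, among them Ccnd2 at -1.66 and -2.79. The signalling list of 24 genes has 0 named points in FB and 5 in FBC, where 5.89% and 14.1% of all genes were called. For 0 of the 24 was the difference between the FBC and FB effects called.

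Across the 16 arrays Csf1 correlated with Csf2ra at r = 0.719 and with Csf2rb at 0.720, and Csf2ra with Csf2rb at 0.582, while Csf1r correlated with Csf1 at -0.00. These correlations describe arrays that share group differences and normalization. The genes most like each in level over the 16 arrays were Otud5 (r = 0.937), Rbpms (0.932) and Acpp (0.929) for Csf1. For Csf2ra they were Ing5 (0.890), Slc20a1 (0.885) and Dennd11 (0.880). For Csf2rb they were Higd1a (0.955), Ifi35 (0.933) and Nup210 (0.929), and for Csf2rb2 Gse1 (0.859), Alkbh4 (0.830) and Eef2k (0.815). Csf3r was nearest to Nod1 (0.934), Stfa2l1 (0.916) and Irak3 (0.887). Csf1r and Il3ra had looser neighbours, led by Whrn (0.796) and Obsl1 (0.760), followed by Efhd2 (0.780) and Pde6g (0.751) for Csf1r and by Cd46 (0.720) and Mpdu1 (0.710) for Il3ra.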

How the data were processed

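The values deposited by the authors are linear probe set intensity of 16 arrays, which per the submitters' processing notes came from Affymetrix Expression Console, with a 2% trimmed mean of 250 on every array. Its version, the summarization method and the build: not given in the sources used here. Values were taken as log2(intensity + 16) and quantile-normalized, since array medians spanned 5.69 to 6.06. Each gene was its brightest single-symbol probe set, by the platform annotation, and the 11908 genes that exceeded the array median on 4 or more arrays entered a single limma model of the 4 groups (12 residual, 16.5 total degrees of freedom), with 5 comparisons, adjusted by Benjamini-Hochberg at 0.05. For single probe sets the adjustment ran over all single-symbol probe sets. The fit was tested on simulated data. The number of arrays limits the precision. Tests ran in limma 3.58.1 under R 4.3.3, and figures in matplotlib 3.10.9 under Python 3.11.15.

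The genes and lists were chosen with earlier results of these data known. Named genes were the 7 genes with all probe sets, the tested ligands and related receptors, up to 4 called genes per list and comparison with the largest change, and the 3 genes of highest correlation to each. Residuals of arrays with the same number correlated at 0.135, 0.231, 0.299 and 0.595 in lean FB and FBC, all above 0.1. In obese mice the correlations were 0.310, 0.033, -0.030 and -0.137. Between lean and obese FBC arrays, which cannot share a mouse, they were -0.009, 0.134, 0.284 and 0.143. Between lean and obese FB arrays they were 0.089, 0.007, 0.085 and 0.190. Lean FB arrays 2, 3 and 4 were each closest to the lean FBC array of their own number, and array 1 to array 3. Most lean arrays thus resembled the one of the same number, but array 4 of both lean groups also had a high actin ratio. No label says that the numbers mark a mouse, so pairs are not shown in either genotype. Alternatives were other filters, probe set rules, normalizations, pseudocounts and variance settings, blocks, and leaving out arrays.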

Additional observations from a re-analysis of the deposited data

Results flagged for a closer look

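Of 60 sets of 4 arrays, made from the 14 probe sets and the 1 shared by Csf2rb2 and Csf2rb in 4 groups, 5 held an array farther from the rest than Dixon's 95% critical value allows, where chance gives about 1 in 20. Csf2rb on 1455660_at read 12.34 on lean FB array 4 against 11.10 to 11.31 on the others. Csf1r on 1419873_s_at read 13.23 on the same array against 13.62 to 13.68. Csf1r on 1423593_a_at read 9.05 on lean FBC array 4 against 11.20 to 11.55, and 8.71 on obese FB array 4 against 10.98 to 11.27. Csf1 on 1448914_a_at read 6.39 on obese FB array 1 against 5.56 to 5.69. Of these 5 readings, 4 fall on an array whose actin ratio was 45.0 to 53.3, and the part of that ratio in them was not tested.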

How the results depend on the processing

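The 35 results of the 7 genes were recomputed under 33 other settings, and neither called gene changed direction. Csf2ra in obese against lean FBC passed under 31 of the 32 settings that apply to this comparison (adjusted p 0.00749 to 0.0444 over the settings). A fixed block by mouse gives no obesity comparison. The exception was a 2-fold minimum, which the Csf2ra change of -0.82 does not reach. Csf1 passed under 31 of 32 (0.000149 to 0.0551), the exception being the mean of its probe sets. With that mean, 1 of the 7 genes, Csf2ra, was called in FBC, and with a 2-fold minimum 1, Csf1. Leaving out 1 array gave 2 to 3 calls in FBC, 0 to 2 in obese FBC against FB, and 0 in the other comparisons. Of all genes, 8.73% to 16.9% were then called in FBC and 4.64% to 11.2% in obese FBC against FB. Array weights gave 2 calls in FB, 3 in FBC, 1 in lean FBC against FB, 3 in obese FBC against FB and 2 in the difference of the effects. They called 33.5%, 34.6%, 11.1%, 18.5% and 12.9% of all genes in these comparisons. The main fit called 5.89%, 14.1%, 0.193%, 8.39% and 0.16%. A replicate block by number over all arrays gave 1 call in FB, 3 in FBC and 2 in obese FBC against FB. Its shares of all genes there were 8.68%, 17.2% and 12.5%. A replicate block by mouse, fixed or random, gave 2 calls in obese FBC against FB, with 13.9% and 14.7% of all genes called. The 2 genes in obese FBC against FB were Csf1 (adjusted p 0.0119 by number, 0.00602 by mouse and 0.0278 at random) and Csf3r (0.0360, 0.0205 and 0.0396). The added call in FBC was Csf2rb, with adjusted p = 0.00822 with array weights and 0.0251 with the number block. The blocks by mouse changed no call in lean FBC against FB. The numbers are not shown to pair arrays in either genotype, and the cause of these changes was not tested.

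Without normalization the median of all genes shifted by 0.12 in FBC and 0.14 in obese FBC against FB. Csf1r in FBC was then -0.38 (adjusted p = 0.262), and with median centring -0.42 (0.233). Of the uncalled results, 13 changed sign in some setting and 10 passed in some. Dim probe sets, such as those of Il3ra and Csf2, are limited by their signal over background.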
